A study of Mus musculus with 103 samples.

Results

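Embryos made by injecting whole sperm of the rete testis were compared with embryos made by injecting only the heads of rete sperm. The embryos were taken by the injected material that the labels name, which gave 12 embryos from rete whole sperm and 22 embryos from rete sperm heads of Control-fed males, 34 of the 103 embryos measured. The rete testis is the network of channels through which sperm leave the testis, before they pass through the epididymis. In intracytoplasmic sperm injection (ICSI) a sperm, or a sperm head separated from its tail, is placed directly into the oocyte. Each library held the messenger RNA of 1 embryo of the FVB mouse strain, frozen at the 2-cell stage 28 hours after injection.

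In both groups the oocytes came from females on a Control diet and the embryos grew in the same medium, KSOM. The head embryos carried sperm of males fed the Control diet. For the whole-sperm embryos the Control diet of the males stands only in the header of the deposited table and in no label. No genetic change is named for any animal. The labels name neither the males, nor the day of injection, nor the sequencing run, so each p-value below measures the spread between embryos, and preparation cannot be told apart from a batch that coincided with it. The number of males behind a group is not named, and embryos of 1 male may have been counted as separate replicates.

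The 2-cell embryo is the stage at which a mouse embryo replaces RNA stored in the egg by RNA of its own. A short burst of genes linked to the endogenous retrovirus MERVL, the Zscan4 family among them, marks the start of this change, and genes for ribosome assembly, splicing and the proteasome are among those that the embryo switches on in the main wave that follows. Maternal transcripts laid down in the oocyte are degraded over the same hours. A whole sperm brings the tail, its mitochondria and the surrounding cytoplasm into the egg, while an isolated head brings the nucleus and what is bound to it.

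Expression was read as CPM, the reads of a gene scaled to the same library size, for 7894 genes, and 7893 of them passed a filter of 5 CPM in at least 12 of the 34 embryos. Levels of different genes were not compared, since CPM does not correct for gene length, and a lower CPM is a lower share of an embryo's RNA, whose total was not measured. The low values of an embryo gave the depth. Whole-sperm embryos had 587709 to 5275013 reads (median 2806572) and head embryos 612848 to 2470500 (median 1104056), and 8 of the 12 whole-sperm embryos were deeper than every head embryo (two-sided permutation test, p = 4e-05). At 1 CPM or more, 7690 ± 144 genes (SD, n = 12) were found in whole-sperm embryos and 7614 ± 184 (n = 22) in head embryos, and this difference did not pass a two-sided permutation test (p = 0.223). Low genes had been left out before deposit, so the counts lie near the 7894 of the table and cannot show equal detection. In the shallowest whole-sperm and head embryos 1 read stood for 1.70 and 1.63 CPM. Markers of the 2-cell stage were present in every embryo: the 12 of 13 markers in the table summed to 3345 to 9850.3 CPM in whole-sperm embryos and to 1369 to 11895 CPM in head embryos.

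Embryos from whole sperm had lower RNA of many genes for ribosome assembly, ribosomal proteins, the spliceosome and the proteasome. They had higher RNA of the Zscan4 genes of the 2-cell burst and of single genes such as Tapbpl and Nanog. Of the 7893 genes, 2319 differed (29.4%), 1094 of them higher (13.9%) and 1225 lower (15.5%) in whole-sperm embryos (limma, two-sided, Benjamini-Hochberg adjusted p under 0.05). A change of at least 2-fold was found in 762 of the genes that rose (9.65%) and 1059 of those that fell (13.4%), each as a share of all genes tested. The median log2 fold change over all genes was 0.03. Fold changes are whole sperm minus heads on the log2(CPM + 1) scale, which understates the change of low genes, with ± SE. For 0 genes did the groups not overlap at all. After quantile or after median-of-ratios scaling 1 gene separated them, Pcbp1, which encodes a poly(rC)-binding protein, at 77.9 ± 31.1 CPM (SD, n = 12) with whole sperm and 241 ± 81.8 CPM (n = 22) with heads before that scaling.

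The head embryos were not alike. The ribosome biogenesis score of an embryo, the mean log2(CPM + 1) of the 97 listed genes, ran from 3.28 to 7.59 in head embryos (median 6.64) and from 3.83 to 6.04 in whole-sperm embryos (median 4.67). All 12 whole-sperm embryos lay below the median of the heads, but the ranges overlapped. A group of 6 head embryos, replicates 4, 8, 12, 14, 15 and 17, lay at 3.28 to 4.74, and the other 16 lay at 5.16 to 7.59. The 6 fell short of the median head embryo of the whole study by over 3 times the scaled median absolute deviation. These 6 were picked by the measure itself, so the counts without them given below are descriptions and no independent evidence. The maternal transcript score, over 95 genes, was 6.94 to 8.13 in whole-sperm embryos and 6.53 to 8.53 in head embryos. The 4 whole-sperm embryos no deeper than the deepest head embryo had ribosome biogenesis scores of 4.49 to 5.31, and the 8 deeper ones 3.83 to 6.04.

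**Figure D1:**
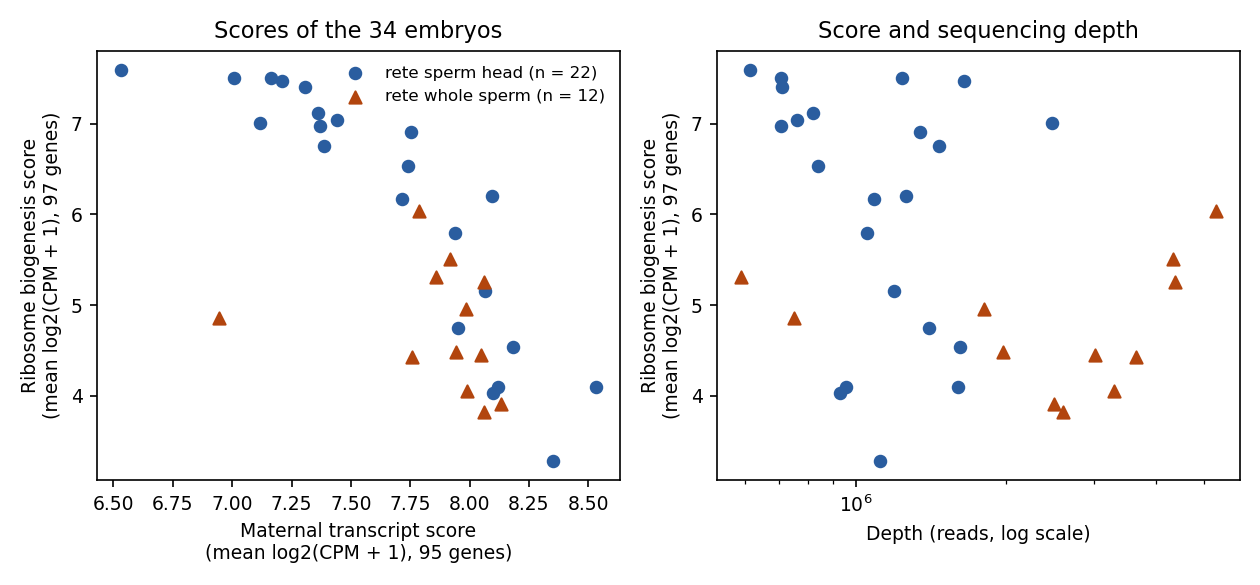
The ribosome biogenesis score of each of the 34 embryos (vertical axes, mean log2(CPM + 1) of 97 genes) is plotted against its maternal transcript score (left, mean log2(CPM + 1) of 95 genes) and against its depth in reads on a log axis (right). Triangles are the 12 whole-sperm embryos, at 3.83 to 6.04, and circles the 22 head embryos, at 3.28 to 7.59, of which 6 lie at 3.28 to 4.74.

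Genes for making ribosomes fell together. Of the 97 genes for ribosome biogenesis and the nucleolus, 0 were higher and 54 lower, beside 13.9% and 15.5% of all genes tested. Their median log2 fold change was -1.41 beside 0.03 over all genes, and 94 of the 97 had a negative value. Utp18, a part of the complex that processes the small-subunit ribosomal RNA, was at 6.96 CPM in the lowest, 38.1 in the median and 78.1 in the highest whole-sperm embryo, and at 47.3, 109 and 206 CPM in head embryos. All 12 whole-sperm embryos lay below the median head embryo, and the log2 fold change was -1.56 ± 0.30 (limma, adjusted p = 6.19e-04). Nop10, a protein of the particles that guide pseudouridylation of ribosomal RNA, was at 2.00, 17.04 and 35.7 CPM with whole sperm against 9.67, 63.5 and 271 CPM with heads. The whole-sperm values overlapped with the low part of the head values, and Nop10 fell by 1.98 ± 0.39 on the log2 scale (limma, adjusted p = 8.69e-04).

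Large changes among these genes were found for assembly factors of both subunits. Nob1, the nuclease that makes the mature end of the small-subunit RNA, was at 0.1 CPM, the value written for no read, in the lowest whole-sperm embryo, 4.33 in the median and 46.1 in the highest, and at 0.1, 99.6 and 305 CPM in head embryos. The log2 fold change was -2.999 ± 0.73 (limma, adjusted p = 0.00377). Fcf1, which acts early in processing of the small-subunit RNA, changed by -2.70 ± 0.60 (limma, adjusted p = 0.00198), and Dimt1, a methyltransferase of that RNA, by -2.23 ± 0.50 (limma, adjusted p = 0.00207). Brix1, needed for the large subunit, had a smaller difference, -1.60 ± 0.35 (limma, adjusted p = 0.00176), and the abundant nucleolar protein gene Npm1 had -0.83 ± 0.20 (limma, adjusted p = 0.00411). Npm1 was at 342, 612 and 1161 CPM with whole sperm and at 523, 1090.3 and 1949 CPM with heads, so the groups overlapped over much of their range.

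With log2 depth as a covariate 0 of the 97 were higher and 14 lower, beside 4.28% higher and 6.45% lower of all genes tested. Without the 6 low head embryos 0 were higher and 90 lower, beside 24.8% and 30.1% of all genes. A stage index was also used as a covariate, the difference between an embryo's ribosome biogenesis score and its maternal score, and then 2 were higher and 6 lower, beside 4.29% and 3.97% of all genes, but the index is built from these genes.

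Promoters are shown for Ltv1 and Nhp2 because they fell and carry the letters CCGGAAGT, a form of the site bound by ETS factors, close to the start of the gene. Windows of RefSeq promoters (GRCm38.p6, the 250 bases before the start, 1 window per gene, both strands) were found for 6415 of the genes tested. CCGGAAGT was in 7.11% of all these windows, in 9.91% of those of genes that fell and in 3.96% of those of genes that rose. It was in 13 of the 83 windows of ribosome biogenesis genes (15.7%) and in 8 of the 61 windows of cytosolic ribosomal protein genes (13.1%). The E-box CACGTG was in 8.90% of all windows and in 7.23% of those of ribosome biogenesis genes. It was in 11.7% of the windows of genes that fell and in 7.47% of those of genes that rose, so this tilt was not particular to CCGGAAGT. A match is a description of the letters and not a bound site. The 120 bases before the start are given 5′ to 3′ on the strand of the gene, with the motif, on either strand, in capitals. The window of Ltv1 lies at chr10:13193138-13193257 (minus strand) and that of Nhp2 at chr11:51619653-51619772 (plus strand).
Ltv1: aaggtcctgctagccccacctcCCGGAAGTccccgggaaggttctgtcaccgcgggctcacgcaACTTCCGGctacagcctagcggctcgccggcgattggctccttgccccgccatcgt
Nhp2: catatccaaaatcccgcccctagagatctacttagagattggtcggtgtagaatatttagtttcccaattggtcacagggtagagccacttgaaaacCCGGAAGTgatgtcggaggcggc
Ltv1, which takes part in export of the small subunit, holds the motif once on each strand. It was at 0.1, 19.7 and 85.7 CPM with whole sperm and at 1.79, 90.9 and 217 CPM with heads, a log2 fold change of -1.91 ± 0.54 (limma, adjusted p = 0.00956). Nhp2, a partner of Nop10 in the same particles, was at 28.0, 73.0 and 191 CPM with whole sperm and at 3.57, 310.2 and 1054 CPM with heads. It fell by 1.49 ± 0.54 on the log2 scale (limma, adjusted p = 0.0345), and some head embryos lay below every whole-sperm embryo.

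The genes of the finished ribosome showed the same direction. Of 83 cytosolic ribosomal protein genes 0 were higher and 56 lower, beside 13.9% and 15.5% of all genes tested. The median log2 fold change was -1.38, and all 83 values were negative. Their summed level was 2011 to 8148 CPM in whole-sperm embryos (median 4068) and 1315 to 27731 CPM in head embryos (median 10538). Rpl15 of the large subunit was at 22.3, 35.8 and 72.7 CPM with whole sperm and at 40.2, 134 and 604 CPM with heads, a log2 fold change of -1.84 ± 0.29 (limma, adjusted p = 9.86e-05). Rpl37a, also of the large subunit, changed by -2.32 ± 0.42 (limma, adjusted p = 3.74e-04). Ribosomal protein genes have many processed pseudogenes, and how the authors assigned reads that match several places is not given in the sources used here, so the level of a single member is uncertain. With log2 depth as a covariate 24 were lower (all genes 6.45%), with the stage index 10 (all genes 3.97%), and without the 6 low head embryos 82 (all genes 30.1%).

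Lists for translation, splicing, protein breakdown and respiration also had negative medians. Their counts are read against the 13.9% higher and 15.5% lower of all genes tested. Of 48 translation initiation factor genes 3 were higher and 18 lower (median -0.69). Eif4e, which binds the mRNA cap, was at 314, 866 and 1426 CPM with whole sperm and at 679, 1624 and 2399 CPM with heads, and the log2 fold change was -0.98 ± 0.21 (limma, adjusted p = 0.00153). All 12 whole-sperm embryos were below the median head embryo. Eif2s1, the alpha subunit of the factor that brings the initiator tRNA, changed by -1.65 ± 0.38 (limma, adjusted p = 0.00229). Eif4enif1, a partner that represses Eif4e, rose by 0.61 ± 0.22 (limma, adjusted p = 0.0366) and passed in 28 of the 34 refits that each left out 1 embryo.

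Of 79 spliceosome and SR protein genes 1 was higher and 35 lower (median -0.91). Srsf2, a splicing activator, was at 5.61, 34.9 and 93.3 CPM with whole sperm and at 28.6, 149.9 and 288 CPM with heads, a log2 fold change of -1.98 ± 0.33 (limma, adjusted p = 1.61e-04). Snrpe, a core protein of the spliceosomal particles, changed by -1.73 ± 0.29 (limma, adjusted p = 1.61e-04). The 1 gene that rose was Bcas2, a part of the Prp19 complex of the spliceosome, at 153, 413 and 3361 CPM with whole sperm and 55.9, 154 and 925 CPM with heads. Its log2 fold change was 1.58 ± 0.36 (limma, adjusted p = 0.00213).

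Of 33 proteasome subunit genes 0 were higher and 19 lower (median -1.05). Psma2 of the catalytic core was at 9.31, 42.4 and 72.7 CPM with whole sperm and 34.4, 111 and 499 CPM with heads, a log2 fold change of -1.63 ± 0.30 (limma, adjusted p = 4.55e-04). Psmd14, the deubiquitinase of the lid, changed by -2.74 ± 0.61 (limma, adjusted p = 0.00197). Among 51 mitochondrial ribosomal protein genes 2 were higher and 21 lower (median -0.85), with the smallest p for Mrpl34 at -2.27 ± 0.41 (limma, adjusted p = 3.96e-04). Among 58 nuclear genes of oxidative phosphorylation 2 were higher and 22 lower (median -0.72). Cox7a2, a subunit of cytochrome c oxidase, changed by -1.93 ± 0.35 (limma, adjusted p = 3.96e-04). Cox5a of the same enzyme was at 9.31, 49.2 and 77.2 CPM with whole sperm against 52.5, 106 and 361 CPM with heads, a log2 fold change of -1.29 ± 0.28 (limma, adjusted p = 0.00162). Mitochondrially encoded genes were not analysed here, so the level of sperm or egg mitochondria was not measured.

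**Figure D2:**
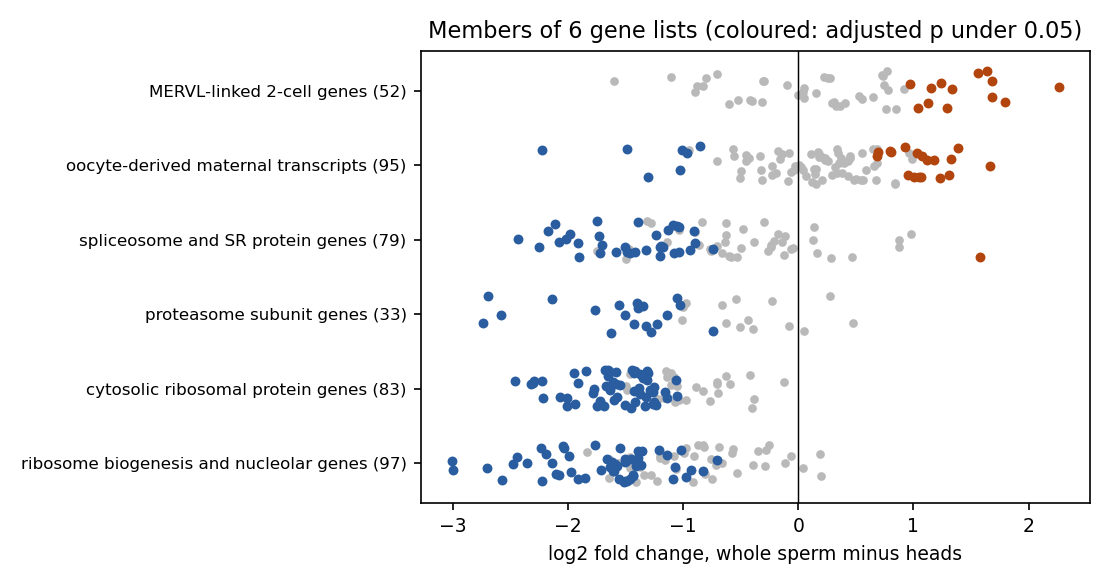
Log2 fold changes (whole sperm minus heads, horizontal axis) of the members of 6 gene lists, 1 point per gene, with the number tested in brackets. Orange points rose and blue points fell past an adjusted p of 0.05, and grey points did not pass. All 83 cytosolic ribosomal protein genes lie below 0, while 13 of the 52 MERVL-linked genes rose and 0 fell. Of all genes tested 13.9% rose and 15.5% fell.

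Single genes with the largest falls were led by Yrdc, an enzyme of tRNA modification at the anticodon loop (chr4:124850759-124855242). It was at 0.1, 2.94 and 8.51 CPM with whole sperm and at 0.625, 52.7 and 254 CPM with heads. Every whole-sperm embryo was below the median head embryo, 17 of the 22 head embryos lay above every whole-sperm embryo, and the log2 fold change was -3.54 ± 0.64 (limma, adjusted p = 3.89e-04). Zfand5, a zinc-finger protein that stimulates the proteasome (chr19:21271786-21286840), had the smallest p of the 24 genes with the largest changes. It was at 11.97, 65.3 and 402 CPM with whole sperm and at 165, 718 and 1375 CPM with heads, 10 of the 12 whole-sperm embryos lay below every head embryo, and the log2 fold change was -3.30 ± 0.40 (limma, adjusted p = 1.96e-06). Zfand5 passed with log2 depth as a covariate (adjusted p = 1.43e-05) and with the stage index (adjusted p = 1.21e-05).

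Ythdf1, a reader of methylated adenosine in mRNA, was at 0.1, 7.24 and 13.3 CPM with whole sperm and at 10.1, 43.3 and 165 CPM with heads. The groups barely overlapped, with 10 of 12 whole-sperm embryos below every head embryo and 21 of 22 head embryos above every whole-sperm embryo, and it fell by 3.03 ± 0.42 on the log2 scale (limma, adjusted p = 1.44e-05). Ppan, an assembly factor of the large ribosomal subunit, was at 0.385, 11.7 and 84.4 CPM with whole sperm and at 15.1, 124 and 479.7 CPM with heads, a log2 fold change of -3.04 ± 0.51 (limma, adjusted p = 1.87e-04). D19Bwg1357e, which RefSeq lists as Pum3, changed by -3.21 ± 0.64 (limma, adjusted p = 9.67e-04).

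Pgm3, an enzyme of UDP-N-acetylglucosamine synthesis, changed by -3.15 ± 0.66 (limma, adjusted p = 0.0014). Tbl3, a part of the small-subunit processing complex, had the widest error of these genes, -3.01 ± 1.00 (limma, adjusted p = 0.0239), with head embryos from 0.1 to 1032 CPM. Tbl3 did not pass with depth as a covariate (adjusted p = 0.163) or with the stage index (adjusted p = 0.677), and neither did Nob1 (adjusted p = 0.0708 and 0.097). The others of the 12 largest falls were Gata1, Commd5, Zfp961 and Lctl, at -3.35 to -2.94.

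Genes of the 2-cell burst rose in part. Of 52 MERVL-linked genes 13 were higher and 0 lower, beside 13.9% and 15.5% of all genes tested. Their median log2 fold change was 0.34, and 36 of the 52 had a positive value. With log2 depth as a covariate 8 were higher and 0 lower (all genes 4.28% and 6.45%), and with the stage index 2 were higher and 1 lower (all genes 4.29% and 3.97%). Without the 6 low head embryos 16 were higher and 11 lower (all genes 24.8% and 30.1%). All 5 Zscan4 genes in the table rose. Zscan4b was at 65.6, 398 and 1182 CPM with whole sperm and at 13.1, 57.1 and 541 CPM with heads, all 12 whole-sperm embryos lay above the median head embryo, and the log2 fold change was 2.27 ± 0.45 (limma, adjusted p = 9.40e-04).

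The promoters of 4 Zscan4 genes are shown since their transcripts rose together and their windows share a TATA box, TATAAA, in capitals. Zscan4a, the other Zscan4 gene in the table, is not among them. TATAAA was in 9 of the 30 windows of MERVL-linked genes (30%), beside 6% of all windows, 6.12% of those of genes that rose and 7.05% of those of genes that fell. The 9 count near copies such as the Zscan4 windows separately, so they are not independent promoters. The windows are the 120 bases before the RefSeq start in GRCm38.p6: Zscan4b at chr7:10905051-10905170 (minus strand), Zscan4c at chr7:11005625-11005744 (plus strand), Zscan4d at chr7:11166149-11166268 (minus strand) and Zscan4f at chr7:11397795-11397914 (plus strand).
Zscan4b: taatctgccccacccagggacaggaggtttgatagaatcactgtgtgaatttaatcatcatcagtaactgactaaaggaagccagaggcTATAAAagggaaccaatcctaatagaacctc
Zscan4c: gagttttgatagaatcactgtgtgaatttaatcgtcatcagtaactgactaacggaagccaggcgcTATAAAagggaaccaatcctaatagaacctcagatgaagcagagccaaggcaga
Zscan4d: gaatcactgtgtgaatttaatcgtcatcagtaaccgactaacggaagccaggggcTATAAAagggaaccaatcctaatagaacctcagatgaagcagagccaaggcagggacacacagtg
Zscan4f: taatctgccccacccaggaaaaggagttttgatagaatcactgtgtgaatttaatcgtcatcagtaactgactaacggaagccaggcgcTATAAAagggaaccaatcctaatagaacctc
The box begins 31, 54, 65 and 31 bases before the listed start in this order, and the bases around it are nearly the same in all 4. The transcripts are as alike, so reads may have been split between the copies and the level of a single Zscan4 gene is uncertain. Zscan4c rose by 1.80 ± 0.47 (limma, adjusted p = 0.0059), Zscan4d by 1.34 ± 0.35 (limma, adjusted p = 0.00566) and Zscan4f by 1.57 ± 0.41 (limma, adjusted p = 0.0062). Zscan4f was at 194, 685 and 1944 CPM with whole sperm and at 68.5, 141 and 1808 CPM with heads, so single head embryos reached nearly the highest whole-sperm value. Obox6, a homeobox gene on the same list, did not pass, with a log2 fold change of -1.60 ± 0.74 (limma, adjusted p = 0.0942).

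The largest rises were found in a different set of genes. Tapbpl, a tapasin-like editor of peptides on MHC class I molecules (chr6:125223927-125231860), was at 21.4, 36.2 and 735 CPM with whole sperm and at 0.1, 4.34 and 140.0 CPM with heads. All 12 whole-sperm embryos lay above the median of the heads and 21 of the 22 head embryos lay below every whole-sperm embryo, with a log2 fold change of 3.37 ± 0.57 (limma, adjusted p = 1.87e-04). Nanog, a transcription factor of pluripotent cells (chr6:122707489-122714633), was at 102, 409 and 4408 CPM with whole sperm and at 1.38, 56.9 and 2041 CPM with heads. Its log2 fold change was 3.004 ± 0.65 (limma, adjusted p = 0.00166), and it was above the median head embryo in 12 of 12. H2-T23, which encodes the non-classical MHC molecule Qa-1, was at 197, 776 and 6108 CPM with whole sperm and at 8.998, 109 and 2584 CPM with heads, a log2 fold change of 2.67 ± 0.53 (limma, adjusted p = 9.40e-04).

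Dclre1c, the nuclease Artemis of DNA end joining, rose by 2.43 ± 0.50 (limma, adjusted p = 0.00115), and Loxl2, a lysyl oxidase, by 2.43 ± 0.50 (limma, adjusted p = 0.00127). The pseudogene Vmn2r-ps129 rose by 2.46 ± 0.52 (limma, adjusted p = 0.00141). Gm4312, Gm4302, A430089I19Rik and Gm7978 had log2 fold changes of 2.73 to 3.29 and rose in the same test, but they belong to multicopy families (RefSeq lists the last 2 as Pramel39 and Pramel50), and none of these 4 passed with the stage index (adjusted p = 0.0539 to 0.126). Tapbpl, Nanog, H2-T23, Dclre1c, Loxl2 and Vmn2r-ps129 passed with that covariate (adjusted p = 5.68e-04 to 0.0122) and with log2 depth (adjusted p = 1.00e-04 to 0.00108).

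These rises shared their extreme embryos. Each of the 12 largest rises, the 10 above with 1700007J10Rik and D3Ertd254e, had its highest value with whole sperm in replicate 1 and its highest value with heads in replicate 2. Whole-sperm replicate 1 was the highest of its group for 566 of the 7893 genes (7.17%) and for 157 of the 1094 that rose (14.4%), and head replicate 2 for 484 (6.13%) and 169 (15.4%). Whole-sperm replicate 1 had 752109 reads, the second lowest depth of its group. Without it Nanog was at 102, 352 and 1108 CPM and H2-T23 at 197, 572 and 2152 CPM. All 12 rises passed in each of the 34 refits that left out 1 embryo.

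**Figure D3:**
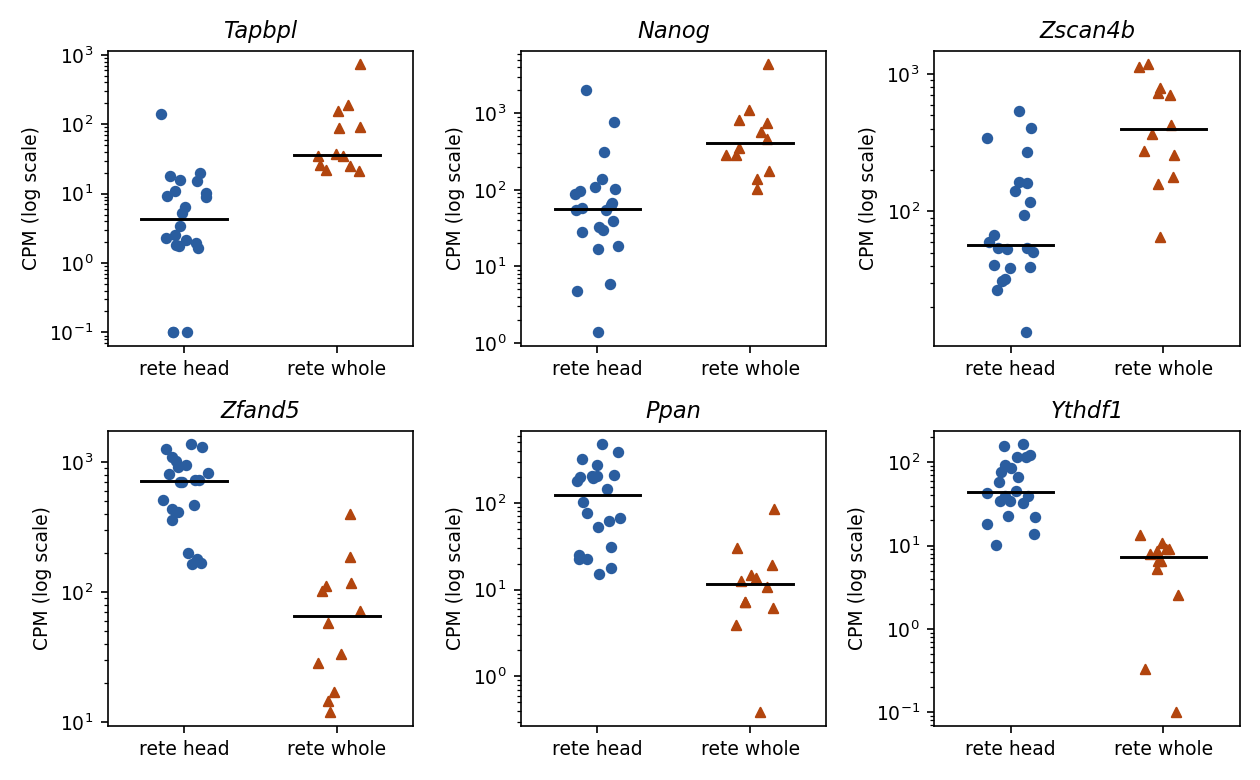
CPM (log axes) of 6 genes in each of the 22 head embryos (circles) and the 12 whole-sperm embryos (triangles), with the median as a line. The 3 genes of the upper row rose and the 3 of the lower row fell, and in each the groups overlap, for Ythdf1 only by whole-sperm values up to 13.3 CPM against a lowest head value of 10.1.

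Maternal transcripts moved both ways. Of the 95 listed, 18 were higher and 7 lower, beside 13.9% and 15.5% of all genes tested. The median log2 fold change was 0.24, and 64 of the 95 had a positive value. Khdc1b, a KH-domain gene of oocytes, was at 4262, 10584 and 18885 CPM with whole sperm and at 757, 2840.2 and 15832 CPM with heads, a log2 fold change of 1.66 ± 0.34 (limma, adjusted p = 0.00126). Hsf1, the maternal heat-shock regulator, was at 149, 234 and 411 CPM with whole sperm and at 33.96, 123 and 216 CPM with heads, a log2 fold change of 1.18 ± 0.24 (limma, adjusted p = 9.67e-04). Both were above the median head embryo in 12 of 12 whole-sperm embryos. The zona pellucida gene Zp2 rose by 0.95 ± 0.24 (limma, adjusted p = 0.00434).

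Dppa3, which protects the maternal genome from loss of DNA methylation, was at 343, 984 and 2265 CPM with whole sperm and at 1295, 2681 and 7984 CPM with heads. It fell by 1.49 ± 0.25 on the log2 scale (limma, adjusted p = 1.92e-04), with all 12 whole-sperm embryos below the median head embryo. Ccnb1, cyclin B1, changed by -1.01 ± 0.23 (limma, adjusted p = 0.00255). With log2 depth as a covariate 5 of the 95 were higher and 3 lower (median 0.08; all genes 4.28% higher and 6.45% lower). Without the 6 low head embryos 41 were higher and 9 lower (all genes 24.8% and 30.1%). With the stage index, which is built in part from these 95 genes, 2 were higher and 11 lower (all genes 4.29% and 3.97%).

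Of 27 pluripotency and first-lineage factors 4 were higher and 5 lower (median -0.40, turning to 0.21 with the stage index), shares near the 13.9% and 15.5% of all genes tested. Beside Nanog, Pou5f1 was higher, at 254, 604 and 1104 CPM against 78.3, 163 and 894 CPM, a log2 fold change of 1.31 ± 0.31 (limma, adjusted p = 0.00315). Dppa2, an activator of 2-cell genes, was at 55.0, 96.0 and 362 CPM with whole sperm and at 68.8, 446 and 945 CPM with heads, a log2 fold change of -1.76 ± 0.38 (limma, adjusted p = 0.00176). Nanog, Dppa3 and the glucose transporter gene Slc2a3 are close neighbours on chromosome 6, and they did not move together. Slc2a3 was at 6.81, 67.7 and 161 CPM with whole sperm and at 0.1, 21.6 and 114 CPM with heads and rose by 1.74 ± 0.63 (limma, adjusted p = 0.0356), a call that held in 28 of the 34 refits that left out 1 embryo, and was lost with depth as a covariate (adjusted p = 0.225) and without the 6 low head embryos (adjusted p = 0.129).

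Of 77 genes of the cell cycle and replication licensing 9 were higher and 19 lower (median -0.40), beside 13.9% and 15.5% of all genes tested, and with the stage index 3 were higher and 4 lower. Gmnn, geminin, which blocks a second round of DNA replication, was at 32.4, 49.4 and 205 CPM with whole sperm and at 53.6, 276 and 1055 CPM with heads, a log2 fold change of -1.87 ± 0.33 (limma, adjusted p = 3.74e-04). Orc6 of the origin recognition complex changed by -1.503 ± 0.30 (limma, adjusted p = 0.00105). Cdc25b, a phosphatase that starts mitosis, was at 144, 249.9 and 445 CPM with whole sperm and at 17.4, 94.6 and 262 CPM with heads and rose by 1.61 ± 0.33 (limma, adjusted p = 0.00114). Among 50 centrosome and centriole genes, of interest because the sperm midpiece carries centriolar structures, 2 were higher and 10 lower (median -0.06). The highest-ranked of these by p was Aurka, Aurora kinase A, at -1.30 ± 0.30 (limma, adjusted p = 0.00249). The 2 that rose were Cep135, at 17.7 to 67.7 CPM with whole sperm and 2.83 to 53.7 CPM with heads, and Plk4, at 299 to 842 and 87.7 to 746 CPM. These rises held in 16 and 13 of the 18 other settings.

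Of 47 autophagy and mitophagy genes, of interest because sperm mitochondria are removed after fertilization, 3 were higher and 12 lower (median -0.27, turning to 0.06 with the stage index). Atg3, an enzyme that attaches LC3 to membranes, was at 2.70, 20.03 and 44.0 CPM with whole sperm and at 15.2, 124 and 305 CPM with heads, a log2 fold change of -2.34 ± 0.43 (limma, adjusted p = 4.55e-04). Uvrag, which acts in membrane traffic to lysosomes, rose by 1.501 ± 0.30 (limma, adjusted p = 0.001). Of 24 egg activation and calcium genes 4 were higher and 3 lower (median 0.00), among them the calmodulin gene Calm2 at -1.47 ± 0.31 (limma, adjusted p = 0.00141). Both lists are read against the 13.9% higher and 15.5% lower of all genes tested, and the calcium list lay near these shares.

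Of 76 chromatin remodelling and silencing factors 4 were higher and 10 lower (median -0.31), shares no larger than the 13.9% and 15.5% of all genes tested. Smarca5, the ATPase of ISWI remodellers, was at 28.8, 90.4 and 284 CPM with whole sperm and at 73.2, 519 and 1188 CPM with heads, a log2 fold change of -2.01 ± 0.37 (limma, adjusted p = 4.55e-04). Jarid2, a partner of the Polycomb complex PRC2, rose by 1.31 ± 0.28 (limma, adjusted p = 0.00162). Of 24 DNA methylation and imprint protection genes 3 were higher and 1, Dppa3, was lower, and Dnmt3l rose by 1.23 ± 0.28 (limma, adjusted p = 0.00229).

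Of 9 paternally expressed imprinted genes 0 passed the limma test in either direction. Mest had the smallest p of these, at 0.59 ± 0.28 (limma, adjusted p = 0.106). Of 13 maternally expressed ones 2 were higher and 1 lower, among them Blcap at 1.35 ± 0.34 (limma, adjusted p = 0.00425). Both lists are small, and of all genes tested 13.9% were higher and 15.5% lower.

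Small RNA pathway genes were of interest because sperm small RNAs are a subject of the study. Of 28 such genes 5 were higher and 4 lower (median 0.46), near the 13.9% and 15.5% of all genes tested. Drosha, the nuclease that cuts primary microRNA transcripts, was at 109, 191 and 386 CPM with whole sperm and at 22.8, 97.3 and 162 CPM with heads, a log2 fold change of 1.101 ± 0.24 (limma, adjusted p = 0.00165). Lin28a, which blocks let-7 maturation, rose by 1.44 ± 0.44 (limma, adjusted p = 0.0148). Trmt6, a subunit of a tRNA adenosine methyltransferase, was at 0.1, 1.66 and 24.1 CPM with whole sperm and at 2.84, 33.9 and 148 CPM with heads, a log2 fold change of -2.65 ± 0.55 (limma, adjusted p = 0.00129). Of 49 mRNA decay genes 2 were higher and 10 lower (median -0.18), with the decapping factor Dcp1a up by 1.32 ± 0.28 (limma, adjusted p = 0.00166).

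The metabolic, stress and immune lists are read against the 13.9% higher and 15.5% lower of all genes tested, and several are small. Pdha1, the E1 alpha subunit of pyruvate dehydrogenase, was at 6.65, 14.3 and 31.7 CPM with whole sperm and at 21.5, 67.4 and 149.9 CPM with heads, a log2 fold change of -1.97 ± 0.28 (limma, adjusted p = 1.96e-05), and of the 17 glycolysis genes, Pdha1 among them, 3 were higher and 2 lower. Of 17 sterol synthesis genes 3 were higher and 1 lower, with the smallest p for Scap, the sensor that escorts sterol regulators, which rose by 1.30 ± 0.24 (limma, adjusted p = 4.55e-04). Of 17 innate sensing and interferon genes 4 were higher and 0 lower (median 0.47), among them Nfkbia, the inhibitor of NF-kappaB, at 1.71 ± 0.53 (limma, adjusted p = 0.0167).

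Of 72 DNA repair genes 3 were higher and 11 lower, beside the same 13.9% and 15.5%, with Rad51c of homologous recombination at -2.31 ± 0.45 (limma, adjusted p = 8.37e-04). Of 41 heat-shock and unfolded-protein genes 3 were higher and 6 lower, of 25 p53 targets and apoptosis genes 1 was higher and 3 lower, and of 59 nucleoporin and nuclear transport genes 6 were higher and 12 lower (median -0.53, turning to 0.10 with the stage index).

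**Figure D4:**
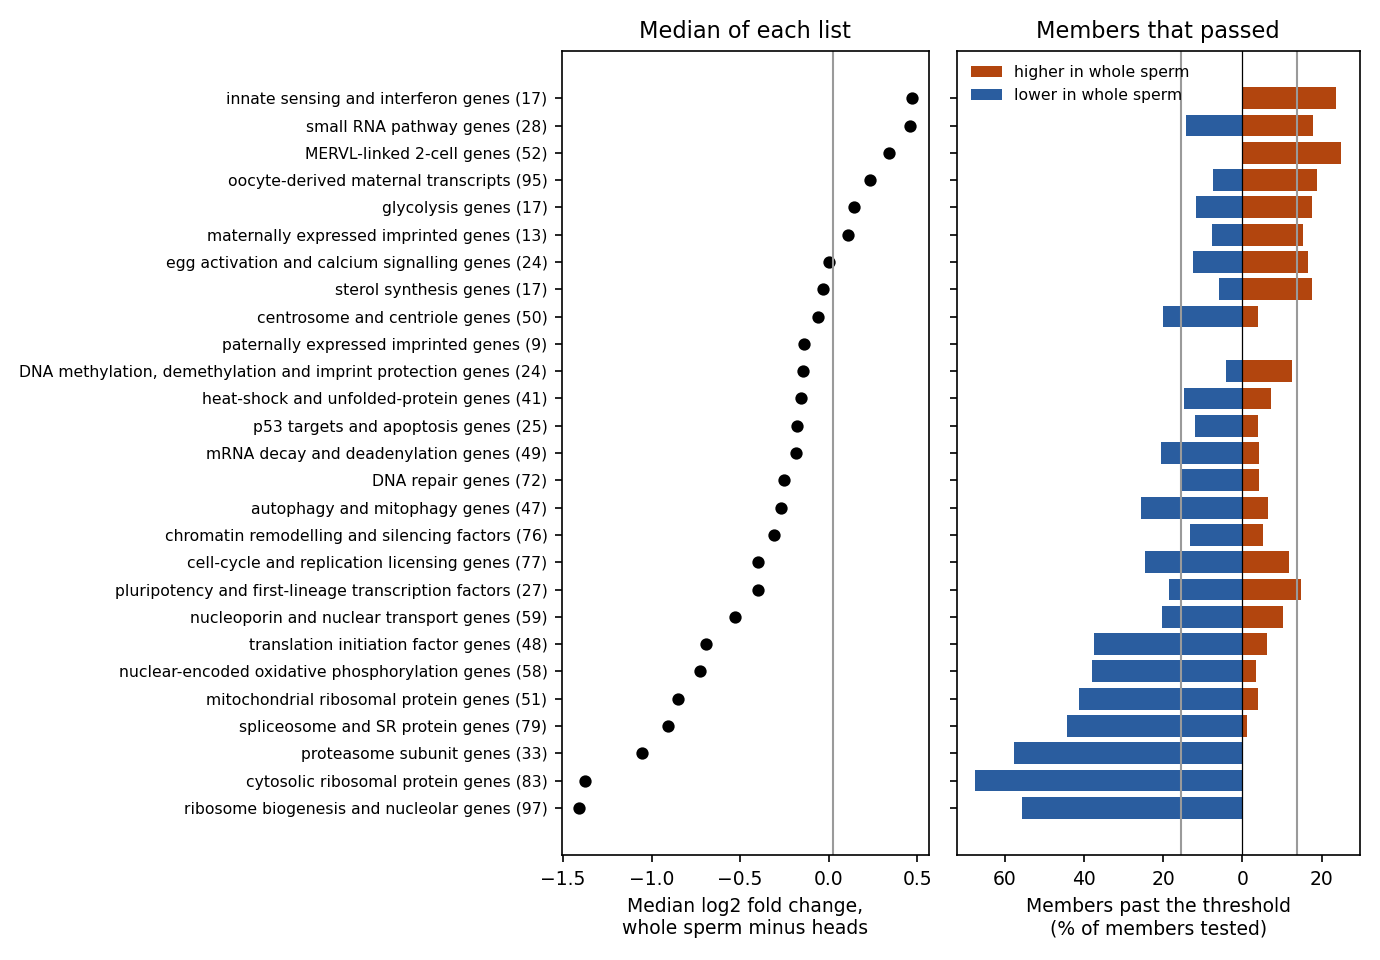
The median log2 fold change of each of the 27 lists with at least 5 members (left, number tested in brackets) and the percent of its members higher or lower past an adjusted p of 0.05 (right). The grey lines give all genes tested, with a median of 0.03 and 13.9% higher and 15.5% lower, and the lists at the bottom are those of ribosome biogenesis at -1.41 and ribosomal proteins at -1.38.

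Markers of cells that could come along with the embryo or the sperm were few in the table. Of 25 cumulus cell markers 3 were in the table and 0 passed the limma test, with Amhr2 at -1.498 ± 0.73 (limma, adjusted p = 0.108). They summed to 101 to 294 CPM with whole sperm and 133 to 446 CPM with heads. Of 38 sperm and spermatid transcripts 3 were in the table and 0 passed, with Odf2, an outer dense fibre gene of the tail, at 163, 349 and 783 CPM with whole sperm and 92.6, 252 and 457 CPM with heads (limma, 0.52 ± 0.24, adjusted p = 0.0868). Odf2 had the 1 positive value of the 3, beside 2 negative ones (median log2 fold change -0.50). Of the 3 testicular somatic markers in the table (22 listed) Gata1 fell, by 3.35 ± 0.83 (limma, adjusted p = 0.00425), and of the 2 epididymal markers (31 listed) Slco4c1 fell, by 2.06 ± 0.63 (limma, adjusted p = 0.0152). The testicular list had 1 positive and 2 negative values, and the epididymal list 1 positive and 1 negative value. The summed testicular markers were at 105 to 387 CPM with whole sperm and 37.1 to 1232 CPM with heads, and the epididymal ones at 20.6 to 108 and 28.6 to 171 CPM. Of the 3 replication-dependent histone genes present 0 passed the test, with Hist2h3c1 at -0.69 ± 0.42 (limma, adjusted p = 0.2). The part of these cells in the results was not tested.

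The same change of preparation was measured in other embryos, 9 from cauda whole sperm and 20 from cauda sperm heads of Control males, with sperm from the part of the epididymis that stores mature sperm. For the whole-sperm males the diet again stands only in the header of the deposited table. That header writes the location as CA for cauda whole sperm and as CA2 for cauda heads, and the part of this difference was not tested. The cauda fold changes rest on no rete embryo, but the fit behind their p-values also held the rete embryos and used their spread. Depth differed between preparations in cauda as well. Cauda whole-sperm embryos had 1721939 to 6058308 reads and cauda head embryos 548816 to 1768761. Preparation cannot be told apart from depth or a batch in either source, and their part in the values below was not tested. It called 4708 of 7894 genes (59.6%), 1991 higher (25.2%) and 2717 lower (34.4%). Of the 1094 genes that rose with rete whole sperm 909 also rose with cauda whole sperm (83.1%), and of the 1225 that fell 1120 also fell (91.4%), while 43.1% of the cauda calls were called in the same direction in rete. Across the 7893 genes the log2 fold changes of the sources had r = 0.865, a description across genes that share libraries. The sign was the same for 86.2% of all genes and for 2292 of the 2319 called (98.8%).

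Among the largest changes in rete, Zfand5 changed by -2.59 ± 0.51 in cauda, Yrdc by -3.63 ± 0.66 and Nanog by 3.22 ± 0.65. Ribosome biogenesis genes had 0 higher and 93 lower in cauda (median -2.61) and ribosomal protein genes 0 higher and 83 lower (median -2.79), where rete had medians of -1.41 and -1.38. Without the 6 low rete head embryos, which were picked by the ribosome biogenesis score, the rete medians were -2.13 and -1.96. The cauda medians include head replicate 23, which was low by the same rule. The MERVL-linked genes, 13 higher and 0 lower of 52 in rete, were 18 higher and 15 lower in cauda (median 0.35), and the difference between these counts was not tested. Of all genes tested in cauda 25.2% were higher and 34.4% lower. A test of the difference between the sources called 2 genes (0.0253%), Akirin2 below and Ascc2 above 0 (0.0127% each), and 1345 genes were at an unadjusted p under 0.05. Akirin2, a nuclear factor of immune gene control, changed by -1.58 ± 0.28 in rete and by 0.50 ± 0.32 in cauda, and Ascc2, a ubiquitin-binding subunit, by 0.25 ± 0.35 and by -2.08 ± 0.37. For Slc2a3, at 1.74 ± 0.63 in rete and -1.78 ± 0.63 in cauda, the difference did not pass (limma, adjusted p = 0.0622).

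The levels can be set side by side in all 6 groups. The median of Nanog was 409 CPM with rete and 770.0 CPM with cauda whole sperm, and 56.9, 44.5, 56.5 and 61.6 CPM with rete heads of Control and Low Protein males and cauda heads of Control and Low Protein males. In the same order the median of Zfand5 was 65.3 and 69.8 CPM with whole sperm and 718, 671, 666 and 998 CPM with heads. That of Khdc1b was 10584 and 12474 CPM with whole sperm and 2840.2, 1637, 1719 and 1921 CPM with heads. For these genes both whole-sperm medians lay on the same side of all 4 head medians, which come from males of either diet. The genes were named for a passing difference in rete, so the gap between the rete Control groups follows from that choice. The share of all genes with such an order was not computed.

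**Figure D5:**
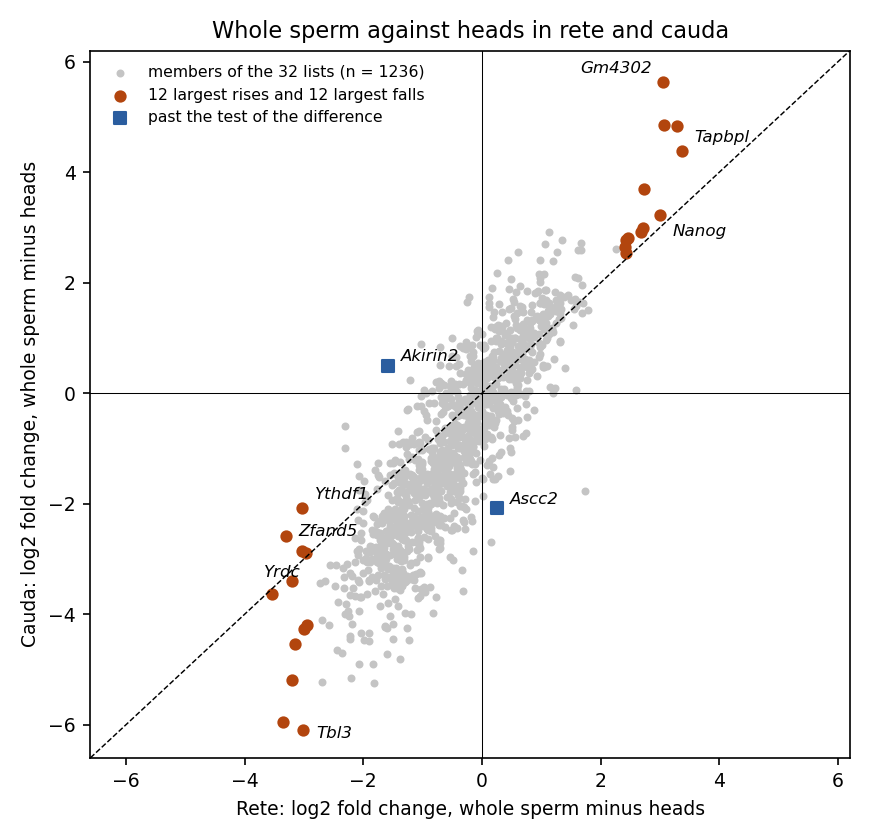
Log2 fold changes of whole sperm minus heads in rete (horizontal axis, 12 against 22 embryos) and in cauda (vertical axis, 9 against 20), for members of the 32 lists (grey), the 12 largest rises and 12 largest falls in rete (orange) and the 2 genes whose change differed between the sources (blue squares). The dashed line marks equal change, and the squares are Akirin2 at -1.58 in rete and 0.50 in cauda and Ascc2 at 0.25 and -2.08.

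Of the 1094 genes that rose and the 1225 that fell, 176 and 200 also passed in the same direction with log2 depth as a covariate, with the stage index as a covariate and without the 6 low head embryos. Zfand5, Ythdf1, Yrdc and Ppan were among those that fell, and Tapbpl, Nanog and H2-T23 among those that rose. The 6 heads were picked by the ribosome biogenesis score and the stage index is built from listed genes. The 176 and 200 are therefore a description and no independent evidence. Depth as a covariate called 847 genes (10.7%) and the stage index 652 (8.26%), against 4332 of 7890 (54.9%) without the 6 low head embryos, and the part of depth, stage or a shared batch in the difference between preparations was not tested. Of the genes named here, Eif4enif1, Trmt6, Dnmt3l, Blcap, Slco4c1, Nhp2, Ltv1 and Dimt1 also did not pass with depth as a covariate (adjusted p = 0.053 to 0.42). With the stage index the rises of Zscan4c, Zscan4d, Zscan4f, Pou5f1, Zp2, Lin28a, Dnmt3l, Blcap, Nfkbia and Eif4enif1 did not pass (adjusted p = 0.0568 to 0.173), nor did the falls of Gata1, Lctl, Eif2s1, Aurka, Slco4c1, Nhp2, Ltv1 and Dimt1 (adjusted p = 0.0546 to 0.644).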

How the data were processed

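Single 2-cell mouse embryos were profiled by single-cell RNA-seq after lysis in TCL buffer, with a Nextera kit, per the labels' protocols. Reads were aligned with Bowtie and the build was mm10, per the submitters' processing notes. How reads were counted, on which annotation and strand, is not stated in any label or header used here.

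The deposited table held 7894 genes in 103 embryos with no unit named. Its values were read as CPM made by the authors, because each column held between 92.1% and 98.1% of a full CPM total, with 0.1 written where no read was found (2.49% of values). Genes of low expression had been left out before deposit, the smallest value in the table's sorting column being 5.00. The depth of an embryo was recovered from the steps between its low values and serves as a covariate only. CPM values of 12 or 22 embryos a group limit the precision, as the SEs show.

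Groups came from the labels. log2(CPM + 1) was fitted with limma 3.58.1 (trend and robust, R 4.3.3), on the 34 rete embryos for the main comparison and on the 63 Control embryos of 4 groups for cauda and for the difference between sources. Genes reaching 5 CPM in 12 or more fitted embryos were tested, two-sided, with Benjamini-Hochberg adjustment over all of them. The test was checked on simulated data. Alternatives were the pseudocount, filter, floor, scaling, embryo weights, covariates for depth, detected genes and stage, GC and length bins, all 6 groups in 1 fit, ranks, the replicate block, the threshold and leaving out each embryo. Stage, the low head embryos, GC and length were chosen after seeing the data. Python 3.11.15 with pandas 2.3.3 and scipy 1.17.1 gave summaries and permutation tests.

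Genes were named by rule: the 12 largest rises and 12 largest falls among genes that passed with a mean of at least 10 CPM in 1 group, any gene without overlap between groups (there was none), from each list at most 2 passing genes each way, ranked by p (or its 1 top-ranked gene where none passed), and the genes that passed for a difference between sources. Brix1, Dimt1, Fcf1, Ltv1, Nhp2, Npm1, Obox6, Pcbp1, Pou5f1, Zp2, Zscan4c and Zscan4f were chosen outside this rule, after their values were seen. The members and the 32 lists were chosen with earlier results of these data known. Positions and promoters came from RefSeq for GRCm38.p6, with 7846 genes matched by accession, 38 by symbol and 10 not matched, and 11 symbols turned into dates by a spreadsheet were restored. Mitochondrially encoded genes and some markers are not reported here.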

Additional observations from a re-analysis of the deposited data

Results flagged for a closer look

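A test of the difference between sources called 2 genes. For Akirin2 the change with whole sperm was -1.58 ± 0.28 in rete and 0.50 ± 0.32 in cauda on the log2 scale, a difference of -2.08 ± 0.44 (limma, adjusted p = 0.0483). Akirin2 was at 21.6, 72.2 and 182 CPM in the lowest, median and highest of 12 embryos with rete whole sperm and at 116, 164 and 584 CPM with rete heads. With cauda it was at 43.4, 95.8 and 412 CPM for whole sperm and 28.6, 76.8 and 224 CPM for heads, and that change did not pass (adjusted p = 0.175).

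For Ascc2 the change was 0.25 ± 0.35 in rete and -2.08 ± 0.37 in cauda, a difference of 2.34 ± 0.50 (limma, adjusted p = 0.0483). Ascc2 was at 9.60, 49.2 and 107 CPM with rete whole sperm and 6.81, 31.8 and 125 CPM with rete heads, where the change did not pass (adjusted p = 0.589). With cauda it was at 1.49, 16.9 and 26.3 CPM for whole sperm and 16.4, 64.3 and 103 CPM for heads. The difference passed in 7 of 15 settings for Akirin2 and in 6 of 15 for Ascc2.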

How the results depend on the processing

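The count of 2319 genes was 847 (338 higher, 509 lower) with depth as a covariate, 652 (339 and 313) with the stage index, 4392 (1950 and 2442) with embryo weights, 4332 (1957 and 2375) without the 6 low head embryos and 866 at an adjusted p of 0.01. The labels do not say whether embryos of equal replicate number belong together. Of 11 shared numbers 3 had correlations over 0.1 (-0.36 to 0.42) and 1 of 11 embryos correlated best with its own number. These correlations over all genes cannot decide whether equal numbers share a day or a batch. With the replicate block on those 22 embryos 1259 genes passed, and 1756 without it. Leaving out 1 embryo gave 1784 (whole-sperm replicate 10) to 2885 (head replicate 14). The other settings gave 1991 to 2730. The cauda count of 4708 was 272 with the stage index, and with quantile scaling 2726 were higher and 2277 lower. The cause of these moves was not tested. The difference between sources called 0 genes with a pseudocount of 0.1 or 5, with detected genes, depth or the stage index as a covariate, without embryos of few detected genes, without low heads, with length bins and at 0.01, 1 with quantile scaling and 127 with weights. Genes without overlap were 1 with quantile and 1 with median-of-ratios scaling. Quantile scaling moved the median of all genes to 0.11. Signs reversed for Amhr2 (0.44 with the stage index), Ascc2 in rete (-0.092 with weights), and the medians of pluripotency (0.21), autophagy (0.058) and nucleoporin genes (0.10) with the stage index, and of glycolysis genes with weights (-0.19), detected genes (-0.0928), without low heads (-0.13) and by ranks (-0.081). Of the 109 named genes that passed, 53 passed in all 18 settings, 36 were lost with depth, 51 with the stage index and 24 with the block. On the same 22 embryos without the block 17 were lost. No rete embryo had few detected genes, so leaving such embryos out gave no value there.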
